A study of Mus musculus with 15 samples.

Results

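Sox1, its overlapping transcript Sox1ot and 7 other genes of neural progenitor cells (Sox3, Sox21, Sox11, Pax6, Hes5, Nes and Zic1) were followed in mouse embryonic stem cells (mESC) losing Smarcb1, which belongs to the core of BAF complexes that remodel nucleosomes. The 9 genes were picked by their symbols out of 55228 listed genes, because Sox1 had been seen to be higher at all 3 times of knockdown in an earlier account of the same values. Differences of these genes between knockdown and control cells are therefore given as a description, and calls of these genes in those comparisons are counted without being read as evidence. Tests are given for times of culture, for the change of the knockdown effect with time, and for genes outside the set. The cells were of the line 81K1, grown with serum and leukaemia inhibitory factor, which descend from OG2 mESC through 1 clone (K1) and carry at Rosa26 an shRNA against Smarcb1 that is expressed when doxycycline is added. Untreated 81K1 cells (ctrl) were harvested at 48 h and 240 h. Cells given 1 µg/ml doxycycline daily (kd) were harvested at 48 h, 72 h and 240 h, which makes 5 groups of 3 libraries each. Control cells carried the same cassette and received no doxycycline, so doxycycline itself and the knockdown cannot be told apart in these libraries. For 72 h kd the reference was the 48 h ctrl group, as no 72 h control was analysed here. Sources do not say whether the 3 libraries of a group came from separate cultures, so the spread between them may be technical.

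Sox1, Sox2 and Sox3 form the SoxB1 group of HMG-box transcription factors, which bind much the same DNA motif and keep neural progenitors undifferentiated. In the embryo Sox2 marks pluripotent cells as well, whereas Sox1 is among the first genes switched on when ectoderm becomes neural plate. Sox21 is a SoxB2 factor that represses targets activated by SoxB1 factors, and Sox11 is a SoxC factor that acts in progenitors leaving the cell cycle. Pax6 is a paired-box factor of forebrain, eye and spinal cord progenitors, Zic1 a zinc-finger factor of the dorsal neural tube, Hes5 a repressor downstream of Notch, and Nes encodes nestin, an intermediate filament of neural progenitors.

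The 15 libraries held between 11074998 and 14515300 reads, recovered from the deposited FPKM values (fragments per kilobase of the whole gene span, introns included, per 1000000 reads). Smarcb1 was at 18.0%, 15.7% and 19.3% of its control mean in the 48 h, 72 h and 240 h kd groups, and no kd library overlapped a control. In the check of cell type, 10 markers of pluripotent stem cells summed to between 4817 and 6730 RPM (reads per 1000000 of the library) in every library, and all 10 were above 0. Mitochondrial genes took 2.53% of the reads in 48 h kd replicate 2 and between 0.507% and 1.95% in the other 14 libraries. Values of 48 h kd are therefore also given without that library where it changes a call.

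Sox1 (ENSMUSG00000096014.1) is a single-exon gene on the plus strand of chromosome 8, from 12395295 to 12400126 in GRCm38. It lies whole within the first intron of Sox1ot (ENSMUSG00000047935.17), a transcript of the same strand from 12385771 to 12436768 with 7 exon blocks, none of which touches Sox1. The start of Sox1 is 9524 bases downstream of that of Sox1ot. Promoter windows of 300 bases (250 before and 50 after the start site) were taken from RefSeq for GRCm38.p6 and held 8 of the 9 genes in 9 windows, 2 of them for Pax6; Sox3 is named only. The RefSeq start of Sox1, at 12395519, lies 224 bases downstream of the start given above, which is that of the GENCODE gene. The windows of Sox1 and Sox1ot are shown because the nested genes have starts of their own, and those of Sox21, Pax6 (the upstream of its starts) and Nes because these genes took different courses in the knockdown. Capitals mark ATGCAAAT, the octamer bound by POU factors, and ACAAT, the core recognised by Sox factors, on either strand (ATTTGCAT and ATTGT read on the opposite strand).
Sox1 promoter, chr8:12395269-12395568, plus strand: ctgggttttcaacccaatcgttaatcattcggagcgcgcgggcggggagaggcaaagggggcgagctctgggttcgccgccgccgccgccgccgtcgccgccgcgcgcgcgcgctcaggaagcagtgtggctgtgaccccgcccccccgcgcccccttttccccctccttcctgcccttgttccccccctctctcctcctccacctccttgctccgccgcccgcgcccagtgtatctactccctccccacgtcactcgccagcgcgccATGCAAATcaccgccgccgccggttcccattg
Sox1ot promoter, chr8:12385521-12385820, plus strand: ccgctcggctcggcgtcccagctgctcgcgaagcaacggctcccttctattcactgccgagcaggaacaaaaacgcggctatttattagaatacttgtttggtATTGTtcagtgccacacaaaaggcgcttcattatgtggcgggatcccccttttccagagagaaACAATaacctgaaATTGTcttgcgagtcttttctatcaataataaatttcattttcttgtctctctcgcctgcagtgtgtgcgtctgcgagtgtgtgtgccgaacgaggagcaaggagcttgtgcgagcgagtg
Sox21 promoter, chr14:118236981-118237280, minus strand: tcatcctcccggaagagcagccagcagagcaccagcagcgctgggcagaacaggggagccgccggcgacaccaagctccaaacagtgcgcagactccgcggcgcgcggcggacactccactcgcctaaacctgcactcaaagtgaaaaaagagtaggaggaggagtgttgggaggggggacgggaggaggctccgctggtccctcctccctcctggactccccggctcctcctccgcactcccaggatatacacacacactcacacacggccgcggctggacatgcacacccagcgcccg
Pax6 promoter, chr2:105668646-105668945, plus strand: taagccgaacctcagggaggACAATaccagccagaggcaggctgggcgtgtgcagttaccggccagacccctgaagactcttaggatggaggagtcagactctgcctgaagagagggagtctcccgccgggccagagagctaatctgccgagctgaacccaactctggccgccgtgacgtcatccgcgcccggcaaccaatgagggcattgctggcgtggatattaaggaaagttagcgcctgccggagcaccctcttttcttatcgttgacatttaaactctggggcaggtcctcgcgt
Nes promoter, chr3:87970843-87971142, plus strand: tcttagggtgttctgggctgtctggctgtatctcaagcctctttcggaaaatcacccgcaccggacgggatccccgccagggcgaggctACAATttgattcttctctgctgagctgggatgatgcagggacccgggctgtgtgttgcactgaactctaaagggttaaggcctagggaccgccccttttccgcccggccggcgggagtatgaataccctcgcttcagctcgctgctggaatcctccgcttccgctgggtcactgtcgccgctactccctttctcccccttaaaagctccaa

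Among the 9 windows the octamer was present in that of Sox1 alone, 18 bases past the RefSeq start site, and it occurs in 1.74% of 32851 RefSeq windows of this length. The Sox core was found in 5 of the 9 windows, against 31.0% of all windows, and 3 times in that of Sox1ot. It was not in the windows of Sox1 or Sox21. CCAAT was in 5 windows (37.4% of all), CAGCTG in 2 (16.3%) and TATAAA in 0 (13.6%), searched on both strands; CCAAT and ACAAT cannot share a match. Each match is a string of letters and no measure of binding. CpG dinucleotides numbered 16 to 41 in the 9 windows, with 37 in that of Sox1, 20 in that of Sox1ot and 41 in that of Hes5. Over all windows the median was 7 and the 75th percentile 20.

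Sox1 was present in control cells and between 2.48 and 3.37 times as high in knockdown cells. In FPKM, the 48 h ctrl libraries held 4.57, 5.15 and 4.35 of it and the 240 h ctrl libraries 5.29, 5.54 and 4.87. The kd libraries held 10.9, 11.6 and 12.5 at 48 h, then 14.7, 16.2 and 16.6 at 72 h, and lastly 14.9, 15.3 and 16.2 at 240 h. All 9 kd libraries were above all 6 ctrl libraries, and the 72 h and 240 h kd libraries overlapped each other. Group means were 4.69 ± 0.414 and 5.23 ± 0.342 FPKM in the controls, and 11.7 ± 0.763, 15.8 ± 1.02 and 15.5 ± 0.687 FPKM in the 48 h, 72 h and 240 h kd (SD, n = 3 each). These rest on 238 to 330 reads per control library and 609 to 1075 reads per kd library. The log2 difference in RPM, with a pseudocount of 0.1, was 1.31 (SE 0.081) at 48 h, 1.75 (SE 0.066) at 72 h and 1.56 (SE 0.065) at 240 h. In bulk RNA, more cells with Sox1 and more Sox1 RNA per cell cannot be told apart.

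Time in culture was tested in the untreated cells, a contrast on which Sox1 had not been picked. The difference of 240 h ctrl from 48 h ctrl was 0.16 (95% interval -0.02 to 0.34, limma adjusted p = 0.2248). Within the knockdown, Sox1 at 72 h was higher than at 48 h by 0.44 on the log2 scale (95% interval 0.29 to 0.58) with no overlap of the libraries. Between 72 h and 240 h it differed by -0.03 (95% interval -0.13 to 0.07).

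**Figure D1:**
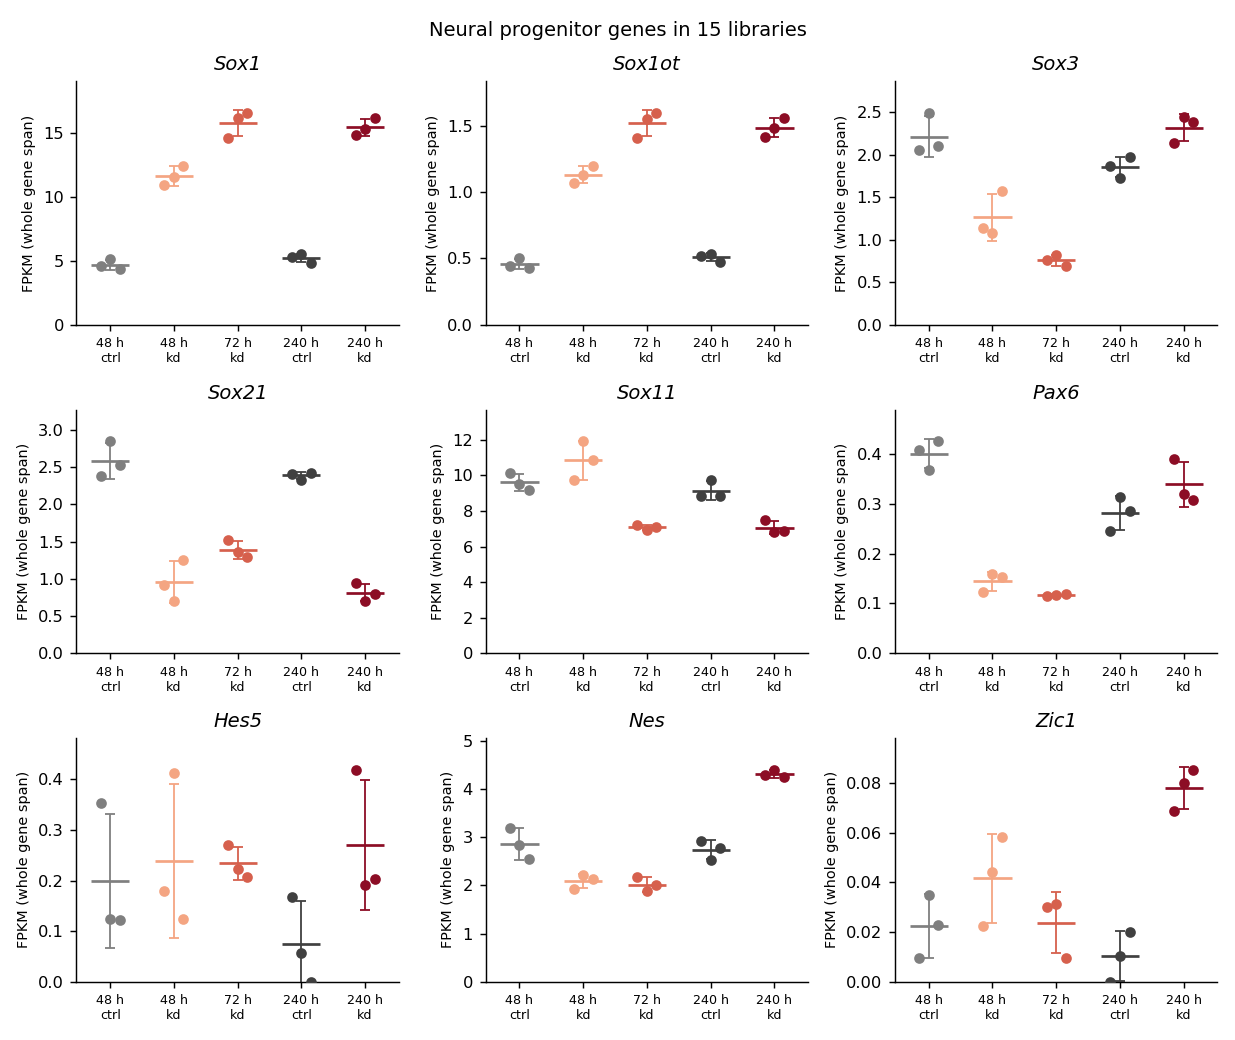
Level of each of the 9 genes in FPKM over the whole gene span (y axes from 0, scaled for each gene) in the 5 groups; points are libraries, horizontal lines are means and bars are SD (n = 3), cut at 0 where they would pass below it. Sox1 and Sox1ot were higher in all 9 kd libraries than in all 6 ctrl libraries, Sox21 was lower, and Sox3, Pax6 and Nes were low at 48 h and 72 h kd and not at 240 h kd.

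Sox1ot had the same course as Sox1, from nearly the same reads. Its values were 0.445, 0.502 and 0.426 FPKM in 48 h ctrl, 1.07, 1.13 and 1.20 FPKM in 48 h kd, and 1.41, 1.55 and 1.60 FPKM in 72 h kd. At 240 h they were 0.520, 0.537 and 0.475 FPKM in ctrl and 1.42, 1.48 and 1.56 FPKM in kd. The log2 differences were 1.30, 1.73 and 1.54. Reads were counted over whole spans, so each read in Sox1 was also given to Sox1ot. Although Sox1 covers only 9.47% of the span of Sox1ot, between 96.4% and 99.4% of the Sox1ot reads of a library lay in Sox1.

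Taking the Sox1 reads off left 8, 8 and 8 reads in 48 h ctrl, 18, 18 and 9 in 48 h kd, and 12, 11 and 16 in 72 h kd. At 240 h there were 12, 7 and 9 reads in ctrl and 6, 22 and 15 in kd. These remainders were above control in all kd libraries at 48 h and 72 h and overlapped control at 240 h. In log2 RPM they differed by 0.82 (SE 0.30) at 48 h, 0.52 (SE 0.15) at 72 h and 0.31 (SE 0.50) at 240 h, smaller than the differences of Sox1 itself. A further 2 listed genes lie within Sox1ot. Gm45560 (chr8:12390168-12391639), upstream of Sox1, had 0 to 4 reads in a library, and without its reads the differences were 0.63 (SE 0.29), 0.37 (SE 0.17) and 0.49 (SE 0.59). The miRNA gene Gm25239, inside Sox1 itself, had 7 to 47 reads, which the span count cannot separate from those of Sox1. At this depth, a change of Sox1ot apart from Sox1 was not resolved.

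**Figure D2:**
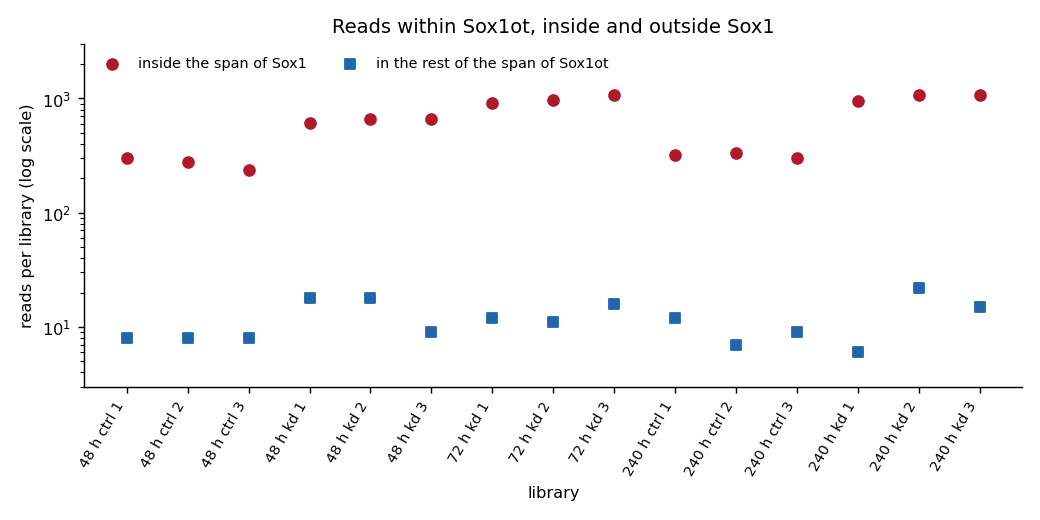
Reads in each of the 15 libraries (x axis) on a log scale (y axis), inside the span of Sox1 (circles) and in the rest of the span of Sox1ot (squares). Circles lie between 238 and 1075 reads and are higher in every kd library, whereas squares lie between 6 and 22 reads.

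Sox3, a SoxB1 factor like Sox1, was lower than control at 48 h and 72 h of knockdown and slightly higher at 240 h. It is a single-exon gene (ENSMUSG00000045179.9, chrX:60891366-60893430, minus strand) that overlaps no listed gene. Its values were 2.05, 2.49 and 2.10 FPKM in 48 h ctrl, 1.14, 1.07 and 1.57 FPKM in 48 h kd, and 0.757, 0.823 and 0.693 FPKM in 72 h kd. At 240 h they were 1.87, 1.73 and 1.97 FPKM in ctrl and 2.13, 2.44 and 2.38 FPKM in kd. Knockdown libraries were thus below control without overlap at 48 h and 72 h and above it without overlap at 240 h, from 19 to 73 reads each. The log2 differences in RPM were -0.80 (SE 0.20), -1.48 (SE 0.20) and 0.31 (SE 0.15). Against 48 h ctrl in place of 240 h ctrl, the difference of Sox3 at 240 h kd was 0.07.

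The changes of Sox3 with time were tested. Between 48 h and 72 h of knockdown it fell by 0.68 in log2 RPM (SE 0.22, adjusted p = 0.02588 by limma), a call that was lost without 48 h kd replicate 3 (adjusted p = 0.1169) or without 72 h kd replicate 1 (0.06518) or 3 (0.0834). From 72 h to 240 h of knockdown it rose by 1.55 (SE 0.19, adjusted p = 5.352e-08), higher in 3 of 3 libraries than in any at 72 h. The knockdown effect at 240 h differed from that at 48 h by 1.11 (SE 0.24, adjusted p = 0.002464), a difference built from the same contrasts in which Sox1 had been noticed. In untreated cells the difference between 240 h and 48 h was -0.24 (SE 0.16, adjusted p = 0.3417).

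Because Sox1 and Sox3 are both single-exon genes, their FPKM can be compared per length. The ratio of Sox1 to Sox3 was between 2.07 and 2.23 in 48 h ctrl and between 2.47 and 3.21 in 240 h ctrl. In the knockdown it was 7.92 to 10.8 at 48 h, 19.4 to 23.98 at 72 h and 6.29 to 6.99 at 240 h. The groups did not overlap, and at 72 h a library held on average 21.01 ± 2.58 times (SD, n = 3) as much Sox1 as Sox3 per base. Sox2, looked at as the remaining SoxB1 gene after its values were known, was far above both at 248 to 363 FPKM in all libraries. Sox1 accordingly made up 1.30% to 1.80% of the summed FPKM of the SoxB1 genes in control libraries and 4.02% to 6.10% in kd libraries. Sox2 itself was lower than control at 48 h and 240 h of knockdown and higher at 72 h, without overlap of the libraries. Its log2 differences in RPM were -0.35 (SE 0.048) at 48 h, 0.14 (SE 0.034) at 72 h and -0.29 (SE 0.041) at 240 h, none of them called. The higher share of Sox1 at 48 h and 240 h therefore reflects lower Sox2 in part.

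**Figure D3:**
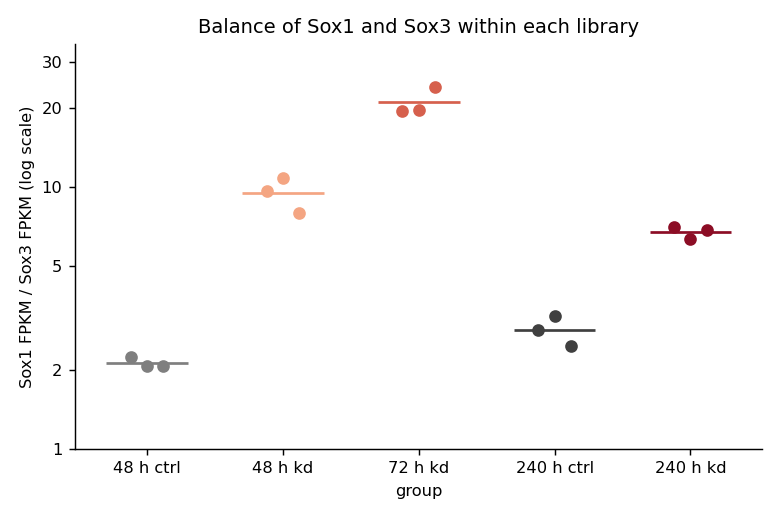
Ratio of Sox1 to Sox3 FPKM within each library (points, log scale) for the 5 groups, with the mean of each group as a line (n = 3). Control libraries lie between 2.07 and 3.21, and the 72 h kd libraries highest, between 19.4 and 23.98.

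Sox21, the SoxB2 repressor, was lower in the knockdown at all times. It is a single-exon gene (ENSMUSG00000061517.8, chr14:118233232-118237030, minus strand), and 21.03% of it is overlapped on the opposite strand by the lincRNA gene Gm4675, which had 3 to 27 reads in its own span. Its values were 2.38, 2.85 and 2.53 FPKM in 48 h ctrl, 0.914, 0.696 and 1.26 FPKM in 48 h kd, and 1.52, 1.36 and 1.29 FPKM in 72 h kd. At 240 h they were 2.41, 2.33 and 2.43 FPKM in ctrl and 0.939, 0.707 and 0.793 FPKM in kd. No kd library overlapped a control, and the log2 differences were -1.45 (SE 0.19), -0.88 (SE 0.13) and -1.53 (SE 0.15). Between 72 h and 240 h of knockdown Sox21 fell by 0.76 (SE 0.17, adjusted p = 0.0002442). From 48 h to 72 h it was higher by 0.57 (SE 0.20, adjusted p = 0.03965), just under the fold limit of 0.58 on the log2 scale. Without 48 h kd replicate 3 that difference was 0.78 and passed. The effect at 240 h less that at 48 h was -0.09 (95% interval -0.61 to 0.44).

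Sox11 had the highest FPKM of the 4 single-exon Sox genes among the 9 in control cells. It spans chr12:27334264-27342574 on the minus strand (ENSMUSG00000063632.6) and overlaps no listed gene. Its values were 10.1, 9.53 and 9.16 FPKM in 48 h ctrl, 9.74, 11.9 and 10.9 FPKM in 48 h kd, and 7.20, 6.94 and 7.10 FPKM in 72 h kd. At 240 h they were 8.84, 9.75 and 8.86 FPKM in ctrl and 7.48, 6.83 and 6.90 FPKM in kd. The groups overlapped at 48 h and did not at 72 h or 240 h, where kd was lower by 0.44 (SE 0.049) and 0.37 (SE 0.058) on the log2 scale. The difference at 48 h was 0.17 (SE 0.073). Within the knockdown, Sox11 fell from 48 h to 72 h by 0.61 (SE 0.069, adjusted p = 2.877e-05), or by 0.54, under the fold limit, without 48 h kd replicate 2, the library with the most mitochondrial reads. From 72 h to 240 h the 95% interval of its difference was -0.10 to 0.10. The effect at 240 h less that at 48 h was -0.54 (SE 0.097, adjusted p = 0.0005932), short of the fold limit.

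The order of the 4 single-exon Sox genes by FPKM changed with the group. In 48 h ctrl it ran Sox11 (mean 9.61), Sox1 (4.69), Sox21 (2.59) and Sox3 (2.21), with Sox21 and Sox3 overlapping. In 72 h kd it ran Sox1 (15.8), Sox11 (7.08), Sox21 (1.39) and Sox3 (0.758), with no overlap between neighbours. In 240 h kd Sox3 (2.32) stood above Sox21 (0.813).

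Pax6 (ENSMUSG00000027168.21, chr2:105668900-105697364, plus strand, 16 exon blocks) took a course like that of Sox3. Its values were 0.407, 0.368 and 0.425 FPKM in 48 h ctrl, 0.122, 0.159 and 0.152 FPKM in 48 h kd, and 0.115, 0.117 and 0.119 FPKM in 72 h kd. At 240 h they were 0.246, 0.314 and 0.285 FPKM in ctrl and 0.389, 0.319 and 0.307 FPKM in kd. Groups were apart at 48 h and 72 h, by log2 differences of -1.45 (SE 0.14) and -1.74 (SE 0.13), and overlapped at 240 h, with a difference of 0.26 (SE 0.13). Against 48 h ctrl in place of 240 h ctrl, the difference of Pax6 at 240 h kd had the other sign, at -0.24. These values rest on 40 to 159 reads over a span 2.43 times as long as the exons. The antisense gene Pax6os1 overlaps 5.03% of Pax6 and had 2 to 16 reads in its own span. Pax6 rose between 72 h and 240 h of knockdown by 1.498 (SE 0.14, adjusted p = 4.697e-10). Its knockdown effect at 240 h was above that at 48 h by 1.72 (SE 0.19, adjusted p = 4.987e-06). That term includes the controls, where 240 h differed from 48 h by -0.51 (SE 0.12, adjusted p = 0.01218), under the fold limit. Without 240 h ctrl replicate 2 the control difference was -0.59 and passed.

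Nes (ENSMUSG00000004891.16, chr3:87971078-87980451, plus strand, 4 exon blocks) overlaps no listed gene and ended above control. Its values were 3.20, 2.84 and 2.54 FPKM in 48 h ctrl, 1.94, 2.21 and 2.14 FPKM in 48 h kd, and 2.17, 1.87 and 2.02 FPKM in 72 h kd. At 240 h they were 2.93, 2.53 and 2.77 FPKM in ctrl and 4.30, 4.40 and 4.25 FPKM in kd. Libraries of kd and ctrl did not overlap at any time, with log2 differences of -0.44 (SE 0.097), -0.50 (SE 0.085) and 0.65 (SE 0.070). From 72 h to 240 h of knockdown Nes rose by 1.09 (SE 0.068, adjusted p = 7.888e-14). Its knockdown effect at 240 h exceeded that at 48 h by 1.10 (SE 0.12, adjusted p = 3.294e-06).

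Hes5 and Zic1 stayed under the minimum of 1 RPM and were not tested. Hes5 (ENSMUSG00000048001.7, chr4:154960923-154962371, plus strand) had 7, 2 and 2 reads in 48 h ctrl, 3, 7 and 2 in 48 h kd, and 5, 4 and 4 in 72 h kd. At 240 h it had 3, 1 and 0 reads in ctrl and 8, 4 and 4 in kd. Only at 240 h did kd and ctrl libraries not overlap, and 52.2% of Hes5 is covered by the antisense gene Gm20421, with 0 to 7 reads in its own span. Zic1 (ENSMUSG00000032368.14, chr9:91358058-91365810, minus strand) had 1, 3 and 2 reads in 48 h ctrl, 2, 4 and 5 in 48 h kd, and 3, 3 and 1 in 72 h kd. At 240 h it had 0, 1 and 2 reads in ctrl and 7, 9 and 9 in kd, the highest of all libraries. Zic4, a divergent neighbour that overlaps 43.8% of Zic1 on the opposite strand, had 0 to 6 reads.

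**Figure D4:**
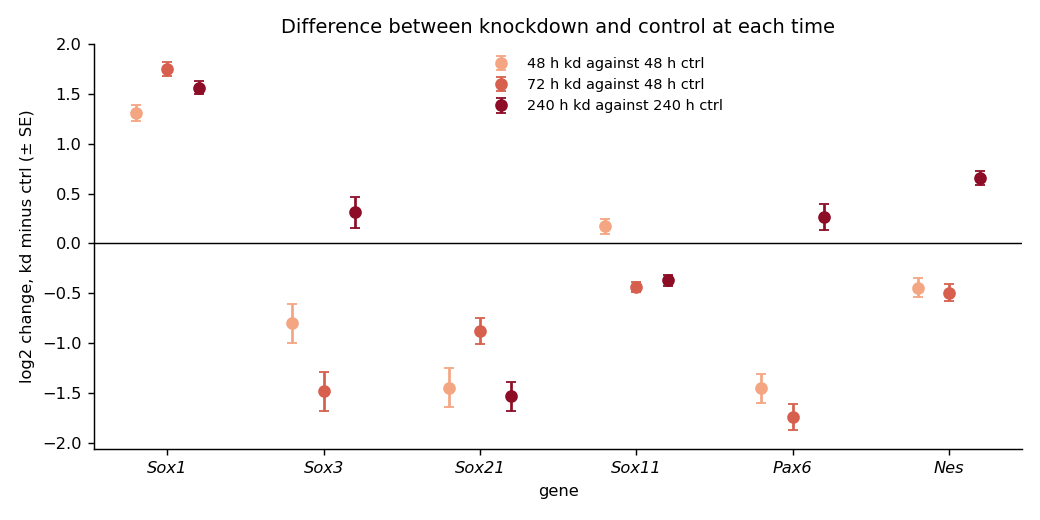
Log2 difference in RPM between kd and ctrl (y axis, ± SE from limma, 3 against 3 libraries) for 6 of the genes (x axis) at 48 h, 72 h (against 48 h ctrl) and 240 h. Sox1 lies between 1.31 and 1.75 and Sox21 between -1.53 and -0.88 at the 3 times, while Sox3, Pax6 and Nes lie below 0 at 48 h and 72 h and above 0 at 240 h, where Pax6 would lie at -0.24 with 48 h ctrl as the control.

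Counted together, 7 of the 9 genes were tested in each comparison, Sox1 and Sox1ot standing for the same reads. Calls required an adjusted p under 0.05 and a log2 difference beyond 0.58 either way. In 48 h kd 2 genes were called higher, against 4.29% of 15669 genes tested, and 3 lower, against 4.92%. Libraries did not overlap for 6 of the 7, against 42% of all genes. In 72 h kd 2 were called higher (12.2% of all genes) and 3 lower (9.73%), and 7 did not overlap (66.1%). In 240 h kd 3 were called higher (9.3%) and 1 lower (8.01%), and 6 did not overlap (53.9%). These comparisons chose the set, so nothing is read from the counts.

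Of the other contrasts, 240 h ctrl against 48 h ctrl called 0 of the 7 genes (0 also by limma voom on the recovered reads), against 0.875% of all genes higher and 0.504% lower. At an unadjusted p under 0.05 there was 1 of the 7 (Pax6), against 29% of all genes. Between 48 h and 72 h of knockdown 0 of 7 were called higher (6.93% of all genes) and 2 lower (5.85%), namely Sox3 and Sox11. Between 72 h and 240 h 3 were called higher (11.5%), namely Sox3, Pax6 and Nes, and 1 lower (13%), namely Sox21. The knockdown effect was higher at 240 h than at 48 h for 3 of 7 (5.41%), again Sox3, Pax6 and Nes, and lower for 0 of 7 (5.21%), in a contrast built from the comparisons that chose the set. Over the 15 libraries, log2 RPM of Sox3 and Pax6 correlated with Pearson's r of 0.91 and those of Sox1 and Sox21 with -0.84; libraries share groups and depth, and the values describe them only.

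Genes with a pattern most like that of Sox1 were looked up among 10818 genes with a mean of at least 5 RPM, by Pearson's r of log2 RPM over the 15 libraries. Among the highest were Fgfr1, a receptor of fibroblast growth factors (0.988), Arhgap42, a GTPase-activating protein (0.987), Npr1, a natriuretic peptide receptor (0.984), and Sema3e, a guidance cue (0.983). Sema3e had group means of 31.9 and 29.9 RPM in 48 h and 240 h ctrl and 88.5, 125.5 and 135.9 RPM in 48 h, 72 h and 240 h kd. In Fgfr1 the means were 167.8 and 167.2 RPM in ctrl and between 255.3 and 292.4 RPM in kd.

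Around the set, 6 lists with 119 genes were tested in the knockdown comparisons, of which 72, 72 and 77 reached the minimum at 48 h, 72 h and 240 h. Over all of them 9.72%, 16.7% and 27.3% rose and 22.2%, 29.2% and 15.6% fell, beside the shares of all genes given above. A gene that reached the minimum of 1 RPM through 1 group only had to differ, and this holds for 0 of 7, 2 of 12 and 5 of 21 genes called higher and for 4 of 16, 3 of 21 and 2 of 12 called lower. Early neural plate factors were lower or not called. Of 10 tested, 4 fell at 48 h, 7 at 72 h and 3 at 240 h and 0 rose, with median log2 differences of -0.41, -0.76 and -0.07, where the medians of all genes lay between 0.01 and 0.02. Otx2, a head organiser and forebrain factor, went from 11.3 ± 0.159 RPM in 48 h ctrl to 3.01 ± 0.245 RPM in 72 h kd (SD, n = 3), a fall of 1.87 (SE 0.14, adjusted p = 2.756e-11). At 240 h Otx2 lay above control without overlap, at 13.3 ± 1.64 against 9.501 ± 0.897 RPM, a difference of 0.48 (SE 0.12, adjusted p = 0.002878) that was under the fold limit. Sall3, a zinc-finger factor, fell by 1.20 at 72 h (SE 0.080, adjusted p = 4.063e-12). Zic5, of the same family as Zic1, fell at all 3 times, with log2 differences of -0.89, -0.83 and -0.64. On log2(FPKM + 0.1) with a minimum of 0.5 FPKM, the list had 2 falls at 48 h and 4 at 72 h. Under 1 of 18 alternatives, 2 genes of the list were called higher at 240 h.

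Regional factors, which set position along the neural tube, were mostly near or under the minimum, so their counts are no support for a direction. At 48 h 1 of 7 tested was called higher and 4 lower, and at 72 h 1 higher and 3 lower. At 240 h 5 of 11 were called higher and 2 lower, but 4 of the 5 (Emx2, Pax2, Irx3 and Gsx1) were under 1 RPM in 240 h ctrl, at means of 0.214, 0.773, 0.561 and 0.266 RPM. The 5 became 3 without 240 h kd replicate 1 or 2, 2 without 240 h kd replicate 3 and 0 with a minimum of 5 RPM. The genes called lower went from 4 to 2 at 48 h without 48 h ctrl replicate 2, and from 2 to 1 at 240 h without any of the 240 h ctrl replicates. Those called higher at 48 h became 2 without any of the 48 h ctrl replicates, and at 72 h 2 without 48 h ctrl replicate 2. Six6, an eye field factor, had 0.156 ± 0.147 RPM in 48 h ctrl and 2.44 ± 0.432 RPM in 72 h kd, and En1, a midbrain factor, had 2.45 ± 0.809 and 0.231 ± 0.148 RPM (SD, n = 3). Each reached the minimum through its higher group only. Nkx6-2, a ventral neural tube factor, fell at all 3 times, with differences of -0.66, -0.90 and -1.16.

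Genes of the Notch pathway, which holds progenitors in their state through Hes genes, were mostly not called. Of 25 tested, 2 rose and 1 fell at 48 h, 6 rose and 1 fell at 72 h, and 7 rose and 1 fell at 240 h, with medians of -0.03, 0.20 and 0.12. The 2 at 48 h became 1 without 48 h ctrl replicate 1, 48 h kd replicate 1 or 48 h kd replicate 2, and the fall at 240 h was lost without 240 h ctrl replicate 1. Dll1, a Notch ligand, rose at all 3 times from 3.45 ± 0.213 RPM in 48 h ctrl to 6.22 ± 1.16 RPM at 48 h and 7.33 ± 0.672 RPM at 72 h, and from 3.91 ± 0.268 to 7.67 ± 0.978 RPM at 240 h. Hes6, a relative of Hes5 that counters Hes1, also rose at all 3 times, by 0.59, 0.81 and 0.93. Notch3 rose at 72 h by 0.96 (SE 0.043, adjusted p = 2.092e-15) and Notch4, best known from endothelium, fell by 1.43 (SE 0.099, adjusted p = 8.123e-12), whereas their differences at 240 h were 0.10 and 0.20 and were not called.

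Proneural and early neuronal genes moved both ways, 3 of 7 up and 1 down at 48 h, 2 up and 3 down at 72 h, and 3 of 8 up and 1 down at 240 h, with medians of 0.24, 0.35 and 0.21. Insm1, a zinc-finger factor of newborn neurons and endocrine cells, rose by 1.58, 1.05 and 2.28 at the 3 times and Elavl4 by 0.76 at 72 h. Map2 and Elavl3, genes of postmitotic neurons, fell at 72 h, with differences of -1.36 and -1.23. At 240 h Elavl3 was still called lower (-0.91), while the difference of Map2 was -0.07 and that of Elavl4 0.02, neither called. Genes of radial glia and progenitor structure counted 0 up and 5 down of 13 at 48 h, 1 up and 5 down at 72 h, and 3 up and 3 down at 240 h, with medians of -0.19, -0.42 and -0.06, and 1 up at 48 h without 48 h ctrl replicate 3. Hopx, a homeodomain cofactor, fell at all 3 times, with differences of -1.20, -3.70 and -2.96, and was under 1 RPM in 72 h and 240 h kd. So did the adhesion molecule gene Ncam1, with -1.12, -2.74 and -1.38. The RNA-binding protein gene Msi1 rose at 72 h by 1.34 (SE 0.047, adjusted p = 2.302e-17), and its difference at 240 h was -0.06 and not called. On log2(FPKM + 0.1) with a minimum of 0.5 FPKM, none of the radial glia genes was called lower at any time. That minimum leaves out long genes, but the scale and the pseudocount differ too, and their parts were not tested.

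Among the other Sox genes, 1 of 10 rose and 1 fell at 48 h, 2 rose and 2 fell at 72 h, and 3 rose and 2 fell at 240 h, with medians of 0.15, 0.23 and -0.0028. The rise at 48 h was lost without 48 h ctrl replicate 1 or 3 or 48 h kd replicate 1 or 2. Sox15, which is close to the SoxB genes and present in mESC, went from 10.3 ± 0.401 to 37.4 ± 1.69 RPM at 72 h, and Sox10, a neural crest factor, from 0.932 ± 0.291 to 2.50 ± 0.270 RPM, passing the minimum in kd only. Sox7, an endoderm and endothelial factor, fell at all 3 times, with differences of -1.68, -3.12 and -1.23, and passed the minimum through ctrl only at 48 h and 72 h, and Sox18 fell at 72 h (-0.80).

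**Figure D5:**
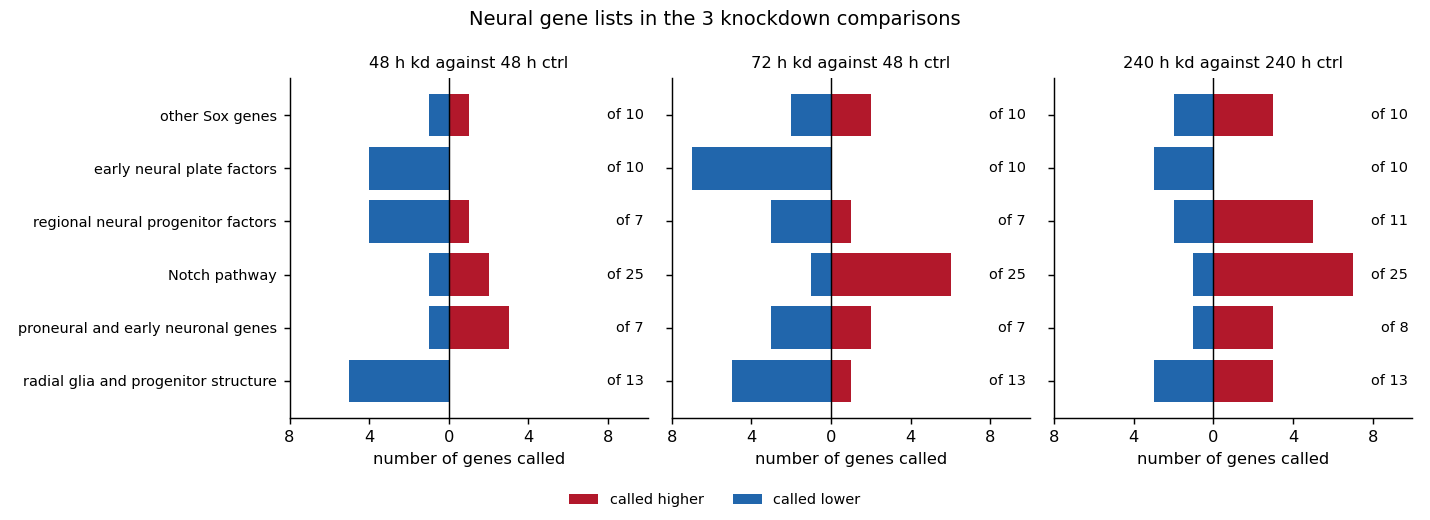
Number of genes called higher (right of 0) and lower (left of 0) in 6 lists of neural genes, for the 3 knockdown comparisons, with the number tested at the right of each bar. Early neural plate factors were called lower only, with 7 of 10 at 72 h, and genes of the Notch pathway were called higher in 7 of 25 at 240 h.

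Markers of cell types differed between the groups beside the 9 genes. The 10 pluripotency markers summed to 4817 to 4869 RPM in 240 h kd against 5550 to 5997 RPM in 240 h ctrl, with 4 called lower (Klf4 by a log2 difference of -1.21, Tbx3 by -1.12, Esrrb by -0.80 and Zfp42 by -0.58). At 72 h kd the sum lay the other way, at 6539 to 6730 RPM against 5905 to 6180 RPM in 48 h ctrl, and at 48 h kd it overlapped control (5484 to 6160 RPM). Klf4 and Tbx3 were also called lower at 48 h and 72 h, and Dppa5a was called higher at 72 h. The 7 trophoblast markers summed to 113.8 to 118.7 RPM in 240 h kd against 65.3 to 71.6 RPM in 240 h ctrl, to 148.7 to 154.6 RPM in 72 h kd against 78.0 to 85.4 RPM in 48 h ctrl, and to 50.7 to 55.04 RPM in 48 h kd. Tfap2c alone made up 88.8% to 99.3% of these sums, at 104.0 ± 2.57 against 66.2 ± 3.39 RPM at 240 h, 150.1 ± 2.62 RPM at 72 h and 51.4 ± 1.99 RPM at 48 h against 79.2 ± 3.51 RPM in 48 h ctrl. The other 6 summed to 12.5 to 12.8 RPM in 240 h kd and at most 3.41 RPM elsewhere. Tfap2c was the only one tested at 48 h and 72 h, and of the 5 called higher at 240 h, 4 (Cdx2, Krt7, Hand1 and Gcm1) passed the minimum through kd only. The 8 primitive endoderm markers summed to 20.6 to 22.0 RPM in 240 h kd and 14.6 to 16.0 RPM in 240 h ctrl, with 3 of 5 tested higher and 1 lower, and lay between 8.36 and 12.3 RPM in the 48 h and 72 h groups, with Sox7 called lower at 48 h and 72 h. The 5 primed epiblast markers summed to 714.6 to 727.1 RPM in 240 h kd and 475.0 to 496.4 RPM in 240 h ctrl, with 2 of 5 higher, Dnmt3b (0.90) and Fgf5, which passed the minimum through kd only. The sums were 450.3 to 484.1 RPM in 48 h kd and 514.5 to 537.2 RPM in 72 h kd, against 512.1 to 515.9 RPM in 48 h ctrl. At 48 h, where Sox3, Pax6 and early neural plate factors were also lower, 1 of 4 tested was called lower (Otx2). At 72 h 3 of 4 were called lower, namely Otx2 (-1.87), Pou3f1 (-1.17) and Dnmt3b (-0.81), and Lefty1 (1.06) was called higher. Otx2 and Pou3f1 stand in the early neural plate list as well. Neuron markers summed to 512.4 to 540.9 RPM in 240 h kd against 451.2 to 509.0 RPM in 240 h ctrl. The sums were 455.2 to 511.0 RPM in 48 h kd and 461.7 to 465.2 RPM in 72 h kd. Both overlapped the 441.4 to 466.7 RPM of 48 h ctrl. Of 6 neuron markers tested, 1 was called higher and 2 lower at 48 h. At 72 h 1 was higher and 4 lower, with a median log2 difference of -0.97, and at 240 h 1 was higher and 2 lower. Neural crest markers summed to 17.7 to 18.3 RPM in 48 h kd and 15.002 to 17.9 RPM in 72 h kd against 24.6 to 25.98 RPM in 48 h ctrl, and to 31.03 to 32.4 RPM in 240 h kd against 26.8 to 31.3 RPM in 240 h ctrl. Of these, Ngfr was called lower at 48 h (-0.76) and 72 h (-1.28), Sox10 higher at 72 h, and 2 of 3 tested higher at 240 h, Twist1 (0.73) and Ets1, which passed the minimum through kd only. Foxd3 was at 0 in every library and Dcx in the 48 h ctrl and 72 h kd groups. Mesoderm markers summed to 9.03 to 10.1 RPM in 240 h kd against 8.13 to 8.76 RPM in 240 h ctrl, and to 6.08 to 6.86 RPM in 48 h kd and 5.75 to 6.85 RPM in 72 h kd against 7.40 to 8.02 RPM in 48 h ctrl. Eomes was called lower at 48 h (-0.71) and 240 h (-1.03), and Hand1 and Mixl1, which passed the minimum through kd only, higher at 240 h. Msgn1 was at 0 in 48 h kd and 240 h ctrl. The part of such markers in the values of the 9 genes was not tested.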

How the data were processed

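RNA-seq was analysed in 15 libraries of 81K1 mESC, grouped by their labels. The authors aligned reads to mm10 (GRCm38) with STAR 2.7.0c and tested counts with DESeq2 1.30.0 in R 4.0.3, per the submitters' processing notes, and deposited FPKM per gene. Multiplying a value by the gene span gave RPM, and multiplying that by the library total gave whole reads for 100% of values (tolerance 0.001). Reads were counted irrespective of strand and overlap, and reads summed over genes exceeded the totals by 7.38% to 8.34%, so values of overlapping genes are uncertain. Of the listed genes 53297 (96.5%) matched GENCODE M21.

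Because FPKM are not counts, log2(RPM + 0.1) was tested with limma 3.58.1 in R 4.3.3 (lmFit, two-sided eBayes with trend), leaving out genes whose mean was under 1 RPM in the libraries compared and adjusting p-values by Benjamini-Hochberg over the rest. Fold differences are on that scale and understate low genes. RPM was used in place of FPKM because it carries no gene length. On simulated data, 90.8% to 92.9% of genes changed 2-fold were recovered in the knockdown comparisons and 77.8% for the interaction, with at most 7 false calls.

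The 9 genes and the lists were chosen with earlier results of these data known. Named besides are genes overlapping them, the 5 genes most like Sox1, and, of each list, up to 2 called genes with the largest change in each direction at 72 h and genes called alike at all 3 knockdown times. An item that this rule selects is not reported here. Alternatives were pseudocounts, minima, normalizations, log2 FPKM, limma voom on recovered reads, 1 fit of all libraries, other controls, the replicate block and each library left out. Python 3.11.15, pandas 2.3.3 and matplotlib 3.10.9 were used. Intervals cover 95%. The reads carry no molecular identifiers.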

Additional observations from a re-analysis of the deposited data

Results flagged for a closer look

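For 3 of the 7 genes tested, the effect of the knockdown at 240 h differed from that at 48 h by the interaction term of limma over 12 libraries, against 5.41% of all genes called higher and 5.21% lower. That term is built from the comparisons that chose the set, so nothing about the set is read from the count. The difference in log2 RPM was 1.11 for Sox3 (adjusted p = 0.002464), 1.72 for Pax6 (adjusted p = 4.987e-06) and 1.10 for Nes (adjusted p = 3.294e-06). Both kd groups of Sox3 and Nes lay outside the range of their own controls, in opposite directions at 48 h and 240 h. Pax6 was below its control at 48 h and overlapped it at 240 h.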

How the results depend on the processing

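Of 864 alternative values for the log2 differences of the 7 tested genes, no called difference reversed and 851 stayed on the same side of the thresholds. Differences that were not called took the other sign in 17 values, of which the largest was that of Pax6 at 240 h against 48 h ctrl (-0.24). Of 636 alternative counts of the gene lists, 69 moved by over 1.5 times or to or from 0. Sox1 ranged from 1.26 to 1.38 at 48 h, 1.59 to 1.82 at 72 h and 1.51 to 1.72 at 240 h. The number of the 7 genes called in 240 h ctrl against 48 h ctrl was 0 and became 1 with no minimum fold change, and 0 to 1 with a library left out (1 without 240 h ctrl replicate 2). In 72 h kd against 48 h kd it was 2 and became 1 with a pseudocount of 1, with no minimum or with a minimum of 5 RPM, 5 with no minimum fold change, and 1 to 2 with a library left out (1 without 48 h kd replicate 2, 72 h kd replicate 1 or 72 h kd replicate 3). In 240 h kd against 72 h kd it was 4 and became 2 with a minimum of 5 RPM, under which fewer genes are tested. With no minimum it became 5, a count that takes in Hes5 and Zic1 besides the 7. Sox3 at 48 h kd was not called without 48 h ctrl replicate 2. Sox11 passed the fold limit in the interaction without 48 h ctrl replicate 1, 48 h kd replicate 1 or 240 h kd replicate 1 (-0.58, -0.62 and -0.58).

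Same-numbered libraries deviated together with correlations of -0.396 to 0.381. Between the 2 control groups these were 0.381, -0.036 and 0.261 for replicates 1, 2 and 3. Whether the numbers pair the libraries is therefore not settled. With the replicate number as a block the called genes among the 7 numbered 5, 5, 4, 0, 2, 4 and 3 in the 7 comparisons, as without it, and over all genes the block moved the calls of 240 h ctrl against 48 h ctrl from 216 to 324. Over all genes, log2 RPM gave 1443, 3427 and 2749 calls in the 48 h, 72 h and 240 h knockdown comparisons, 216 between controls, 1993 in 72 h kd against 48 h kd, 3852 in 240 h kd against 72 h kd and 1676 in the interaction. In the same order, log2 FPKM with a minimum of 0.5 gave 456, 1548, 1016, 54, 857, 1803 and 664, and a minimum of 5 RPM, which leaves fewer genes to test, gave 798, 2061, 1480, 94, 1109, 2275 and 1110. Calls between controls were also 113 with a pseudocount of 1, 32 with no trend, and 125 and 96 without 48 h ctrl replicate 2 and 3. Median centring turned the split of higher to lower calls from 1811 and 2041 to 2315 and 1548 in 240 h kd against 72 h kd, from 1081 and 912 to 889 and 1133 in 72 h kd against 48 h kd, and from 1908 and 1519 to 1572 and 1850 in 72 h kd against 48 h ctrl; the cause was not tested. With no minimum the split was also 3139 to 2360 in 240 h kd against 72 h kd and 1136 to 1198 in 72 h kd against 48 h kd. Reads limit Hes5 and Zic1, with at most 9 per library.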
